A study of Rattus norvegicus with 9 samples.

Results

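Complement components and regulators were followed in the frontal cortex of 9 male rats, through 6 genes, C1qa, C1qb, C1qc, C3, C7 and Serping1. They are 6 of the 37209 genes in the table of read counts, and all 6 passed the filter on low counts that left 16837 genes for testing. They had been chosen with their values over these same groups known, so their levels and group differences are given here as description, without a test. The Control rats (A1, A2 and A6) were not separated. The MS group (rats B3, B4 and B6) was parted from the dams for 4 h each day between PND 1 and PND 21, and the MS+EA group (rats C3, C10 and C16) had the same separation followed by electroacupuncture (EA) at the acupoints GV20 and GV29 every other day from PND 61 to PND 81. By the study's methods the rats were Wistar, all groups were anaesthetized with isoflurane on treatment days, and Control and MS rats received the anesthesia alone. The treatment label is less clear, since it names Control and MS in its sentence on acupuncture under anesthesia and can be read as saying that they were needled too. No sham EA rats are among the sequenced samples, so the electrical stimulation cannot be told apart from the needling and handling that came with it. The labels give an age of 14 weeks and do not say which rats shared a litter. One rat is named C3, and it is called rat C3 throughout to keep it apart from the C3 gene.

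Complement is a cascade of proteins best known from blood, where it tags particles for uptake and opens membranes. C1qa, C1qb and C1qc encode the chains of C1q, the recognition molecule of the classical pathway, which in the brain is made mainly by microglia. C3 encodes the central component on which the activation pathways converge, C7 encodes a component of the membrane attack complex, and Serping1 encodes C1 inhibitor, which blocks the proteases C1r and C1s. In the developing brain C1q and C3 are known for marking synapses that microglia then remove.

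In RefSeq, on build GRCr8, the 3 C1q genes lie next to each other on chromosome 5, C7 on chromosome 2, Serping1 on chromosome 3 and C3 on chromosome 9. The stretches upstream of C1qa, C1qb and C3 are shown because they hold the stretch just ahead of transcription for 3 of the members, and each covers the 130 bases just before the annotated gene start, written 5′ to 3′ on the strand of the gene, from the same source. The deposited counts were made on another build, Rnor_6.0. Capitals mark the motifs found there.
C1qa, chr5:154419934-154420063, minus strand: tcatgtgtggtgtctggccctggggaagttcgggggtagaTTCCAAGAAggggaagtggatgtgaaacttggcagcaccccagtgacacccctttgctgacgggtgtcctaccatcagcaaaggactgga
C1qb, chr5:154407828-154407957, minus strand: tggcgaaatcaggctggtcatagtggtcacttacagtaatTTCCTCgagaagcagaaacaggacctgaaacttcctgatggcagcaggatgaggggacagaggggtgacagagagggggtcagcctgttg
C3, chr9:2201340-2201469, minus strand: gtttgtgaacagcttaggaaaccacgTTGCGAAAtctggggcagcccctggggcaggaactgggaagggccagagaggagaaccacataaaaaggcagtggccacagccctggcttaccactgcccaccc

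Motifs were searched on both strands over the 250 bases before the start. In C1qa the capitals mark TTCNNNGAA, the palindromic form of a STAT site, beginning 90 bases before the start, a motif held by 7.67% of the 33469 promoters in the reference. In C1qb they mark the reverse complement of GAGGAA, a core of sites for PU.1, a transcription factor of microglia and macrophages. It begins 90 bases before the start, a further copy begins 247 bases before it, and 23.3% of all promoters hold at least 1 copy. In C3 they mark TTGCNNAA, a form of the C/EBP site, 104 bases before the start, which 9.22% of promoters hold. The interferon-stimulated response element, searched in a relaxed form that 3.41% of all promoters hold, and TATAAA, in 12.9%, had no match in these 3 windows. These matches are letters in a sequence and say nothing of binding.

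The total lay between 12479905 and 19007907 counts per rat, and the 3 MS+EA rats had the lowest totals. Levels are given in CPM, reads per 1000000 on library sizes scaled by edgeR's TMM method. Markers of cortical neurons (Snap25, Rbfox3, Slc17a7, Gad1, Syt1 and Camk2a) were all present, with a summed level between 6671 and 8318 CPM in every rat. The MS rat B4 stood apart from the others. Its summed level of 12 markers of meningeal and perivascular fibroblasts (collagens, Dcn, Lum, Igf2, Slc6a13 and others) was 654 CPM, against 61.3 to 75.1 CPM in Control rats, 90.9 and 152 CPM in the other MS rats and 89.7 to 335 CPM in MS+EA rats. None of the 12 markers was at 0 over all rats, and 11 of the 12 had their highest level in B4. In B4 the hypothalamic peptide genes Oxt and Avp had 258 and 503 reads, against at most 25 and 29 in any other rat. Hcrt, Pmch and Trh, the other hypothalamic genes looked at, were not raised in B4. They had 0, 4 and 5 reads there, against at most 23, 31 and 16 in the other rats. The MS+EA rat C16 had the next highest fibroblast sum. Values of the 6 genes that rest on B4 or C16 are therefore also given without them.

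Of the 6 genes, 0 passed both thresholds (adjusted p below 0.05, fold change above 1.5) in any comparison by edgeR with the filter on low counts. Over all genes tested the share that passed was 0.0238% in MS against Control rats, made up of 0.0178% higher and 0.00594% lower in MS rats. It was 0.0178% in MS+EA against MS rats, all of them higher, and 1.37% in MS+EA against Control rats, made up of 1.25% higher and 0.119% lower in MS+EA rats. In MS against Control rats, 2 of the 6 genes (C7 and Serping1) were higher in every MS rat than in any Control rat and 0 were lower in this sense, where 10% of all genes tested were higher and 7.53% lower. In MS+EA against MS rats the values of all 6 genes overlapped, where 8.27% of all genes were higher and 9.60% lower without overlap. In MS+EA against Control rats, C7 and Serping1 were again higher without overlap, with 13.0% of all genes, and C1qc was lower, with 12.9%. Nothing is read from these shares, since the genes were chosen on these comparisons. The MS rats enter the first 2 of these comparisons and the Control rats the first and the last, so the comparisons are not independent. C7 and Serping1 were thus higher in every separated rat, MS or MS+EA, than in any Control rat. The share of all genes with this pattern was not computed, and nothing is read from the pattern.

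**Figure D1:**
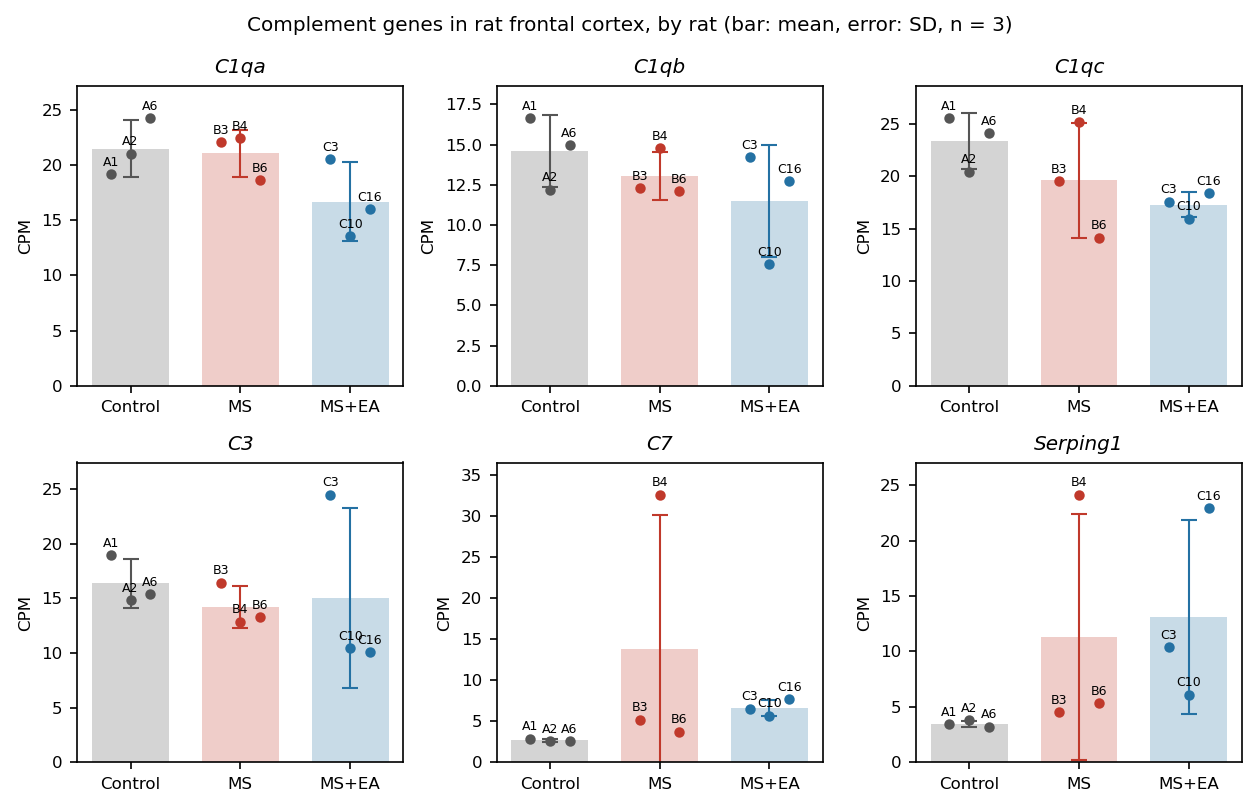
Level of each of the 6 complement genes in CPM (y axis) in the Control, MS and MS+EA groups (x axis), with 1 point per rat, the bar at the group mean and the error bar at 1 SD (n = 3, cut at 0). The C1q genes lie between 7.57 CPM (C1qb in C10) and 25.5 CPM (C1qc in A1). C7 in rat B4 (32.6 CPM) and Serping1 in rats B4 and C16 (24.1 and 22.9 CPM) stand far above the other rats.

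C1q chains were lowest in the MS+EA group on average, and the groups overlapped for C1qa and C1qb. The level of C1qa was 19.2, 21.0 and 24.2 CPM in Control rats A1, A2 and A6, 22.1, 22.5 and 18.6 CPM in B3, B4 and B6 of the MS group, and 20.5, 13.5 and 15.98 CPM in MS+EA rats C3, C10 and C16. Rats C10 and C16 were below every other rat, and rat C3 was within the range of the other groups. The mean was 21.5 ± 2.57 CPM (SD, n = 3) in Control rats, 21.1 ± 2.11 CPM in MS rats and 16.7 ± 3.55 CPM in MS+EA rats. The log2 fold change of C1qa was -0.03 (standard error, SE, 0.150) in MS against Control rats, -0.34 (SE 0.153) in MS+EA against MS rats and -0.36 (SE 0.153) in MS+EA against Control rats.

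For C1qb the levels were 16.6, 12.2 and 15.0 CPM in Control rats, 12.3, 14.8 and 12.1 CPM in MS rats, and 14.2, 7.57 and 12.7 CPM in MS+EA rats. Rat C10 was the lowest, with 113 reads, and the other MS+EA rats lay within the range of Control rats. The log2 fold change was -0.16 (SE 0.201) in MS against Control rats, -0.18 (SE 0.206) in MS+EA against MS rats and -0.35 (SE 0.205) in MS+EA against Control rats.

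For C1qc the levels were 25.5, 20.4 and 24.1 CPM in Control rats, 19.5, 25.1 and 14.1 CPM in MS rats, and 17.6, 15.9 and 18.4 CPM in MS+EA rats. Every MS+EA rat was below every Control rat, and the MS rats spanned both groups. The MS rats differed most among themselves for this chain, 1.78-fold from lowest to highest, against 1.25-fold in Control rats and 1.15-fold in MS+EA rats. The log2 fold change was -0.25 (SE 0.172) in MS against Control rats, -0.18 (SE 0.175) in MS+EA against MS rats and -0.44 (SE 0.174) in MS+EA against Control rats. Without B4 the first of these was -0.47 (SE 0.159) and the second 0.04 (SE 0.161), while the last was -0.43 (SE 0.142).

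A C1q molecule holds its chains in equal number, and the make-up of the C1q reads was compared across rats. C1qa took between 31.2% and 41.6% of the reads on the 3 genes, C1qb between 20.4% and 27.2%, and C1qc between 31.5% and 43.0%. The group mean for C1qa was 36.2% ± 4.35 (SD, n = 3) in Control rats, 39.5% ± 3.05 in MS rats and 36.6% ± 2.65 in MS+EA rats, for C1qb it was 24.5% ± 2.33, 24.5% ± 2.18 and 24.9% ± 3.85, and for C1qc 39.3% ± 2.05, 36.0% ± 4.41 and 38.5% ± 4.76. The ranges of the 3 groups overlapped for each chain. Between single rats the shares differed by more than counting error in places. For C1qa, the 95% Wilson interval was 28.6% to 34.0% in A1 and 38.1% to 45.1% in B6, and for C1qc it was 28.3% to 34.9% in B6 and 39.0% to 47.2% in C10. The intervals cover counting error only. Shares of reads are not corrected for transcript length, so they do not rank the chains.

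**Figure D2:**
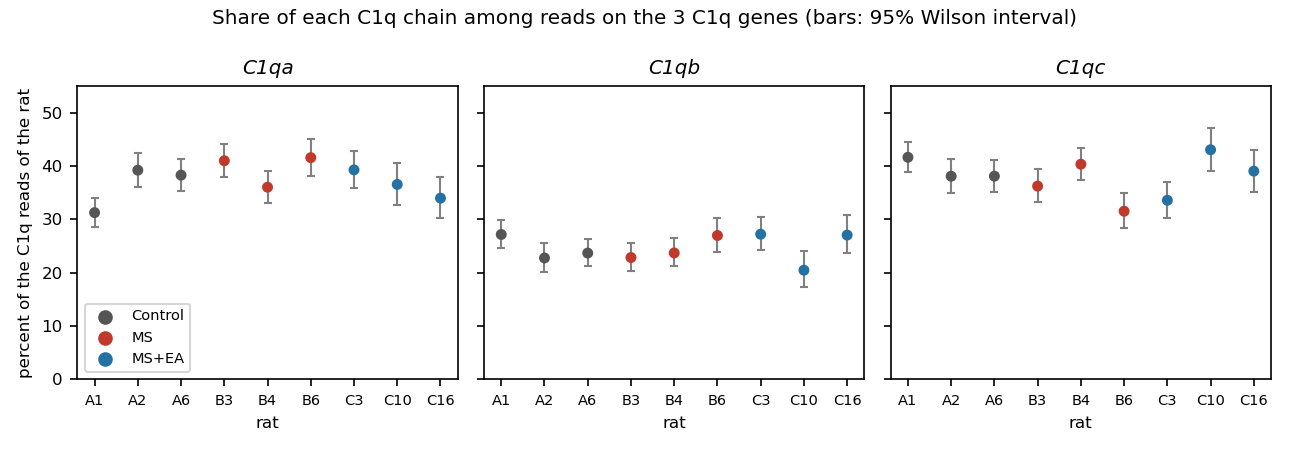
Percent of the reads on the 3 C1q genes that fell on C1qa, C1qb and C1qc (y axis) in each rat (x axis), with 95% Wilson intervals that cover counting error only. The shares of C1qb stay between 20.4% and 27.2% in all 9 rats, with the lowest C1qa share in A1 and the lowest C1qc share in B6.

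The summed level of the C1q genes was 59.5 ± 5.12 CPM (SD, n = 3) in Control rats, 53.7 ± 8.75 CPM in MS rats and 45.5 ± 7.75 CPM in MS+EA rats. The 12 markers of microglia, among them Aif1, Cx3cr1, P2ry12, Tmem119 and Itgam (itself a complement receptor subunit), were all detected, and their summed level lay between 427 and 485 CPM in Control rats, 432 and 470 CPM in MS rats, and 373 and 484 CPM in MS+EA rats. Rat C10 had the lowest sum for both. In bulk tissue, fewer microglia and less C1q RNA per microglial cell cannot be told apart. Set against the microglial sum of the same rat, C1q stood at 0.131 ± 0.00913 (SD, n = 3) in Control rats, 0.120 ± 0.0162 in MS rats and 0.108 ± 0.00880 in MS+EA rats. The highest MS+EA value of this ratio, 0.117, was below the lowest Control value, 0.126, and the MS values from 0.102 to 0.133 covered both. The part of microglial number in the C1q levels was not tested.

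The C3 gene varied most among the MS+EA rats. Its level was 18.9, 14.8 and 15.4 CPM in Control rats, 16.4, 12.9 and 13.3 CPM in MS rats, and 24.5, 10.5 and 10.1 CPM in MS+EA rats. Rat C3 had the highest level of all rats, and C10 and C16 had the lowest, so that the MS+EA group surrounded both other groups. The mean was 16.4 ± 2.24 CPM (SD, n = 3), 14.2 ± 1.95 CPM and 15.0 ± 8.21 CPM in the Control, MS and MS+EA groups. The log2 fold change was -0.21 (SE 0.274) in MS against Control rats, 0.08 (SE 0.277) in MS+EA against MS rats and -0.12 (SE 0.275) in MS+EA against Control rats. Without rat C3 the latter pair became -0.46 and -0.67, and without C16 they were 0.30 and 0.09. Rat C3 also had the highest summed level of 6 oligodendrocyte markers, 4176 CPM against 1830 to 3241 CPM in the other rats, and the part of the tissue make-up in its C3 level was not tested.

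C7 was low and even in Control rats and higher in every separated rat. Its level was 2.89, 2.62 and 2.55 CPM in Control rats A1, A2 and A6, which is 41 to 54 reads. In MS rats it was 5.19, 32.6 and 3.73 CPM in B3, B4 and B6, and B4 alone had 521 reads against 89 and 62. In MS+EA rats C3, C10 and C16 it was 6.52, 5.70 and 7.71 CPM. The MS+EA rats were above every Control rat and above the MS rats B3 and B6, and only B4 was above them. The mean was 2.69 ± 0.180 CPM (SD, n = 3) in Control rats, 13.8 ± 16.3 CPM in MS rats and 6.64 ± 1.01 CPM in MS+EA rats.

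The direction of C7 between MS+EA and MS rats depended on B4. Over all rats the log2 fold change was 2.35 (SE 0.643) in MS against Control rats, -1.06 (SE 0.599) in MS+EA against MS rats and 1.30 (SE 0.663) in MS+EA against Control rats. Without B4 the first was 0.73 (SE 0.241), the second turned to 0.58 (SE 0.235) and the last stayed at 1.30 (SE 0.217). With all rats the group means thus ran in the order Control, MS+EA, MS, and without B4 in the order Control, MS, MS+EA.

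Serping1, like C7, was lowest in the Control rats, and it was high in C16 as well as in B4. Its level was 3.43, 3.78 and 3.23 CPM in Control rats, 4.55, 24.1 and 5.35 CPM in MS rats, and 10.4, 6.10 and 22.9 CPM in MS+EA rats. Reads numbered 52 to 64 in Control rats, 386 in B4 and 288 in C16. Every separated rat was above every Control rat, and every MS+EA rat was above B3 and B6. The mean was 3.48 ± 0.278 CPM (SD, n = 3) in Control rats, 11.3 ± 11.1 CPM in MS rats and 13.1 ± 8.72 CPM in MS+EA rats. The log2 fold change of Serping1 was 1.70 (SE 0.605) in MS against Control rats, 0.21 (SE 0.556) in MS+EA against MS rats and 1.90 (SE 0.607) in MS+EA against Control rats. Without B4 these were 0.51 (SE 0.429), 1.41 (SE 0.415) and 1.91 (SE 0.375). With B4 and C16 both left out they were 0.51 (SE 0.255), 0.74 (SE 0.270) and 1.25 (SE 0.248). Without C16 alone, the difference between MS+EA and MS rats was -0.46.

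**Figure D3:**
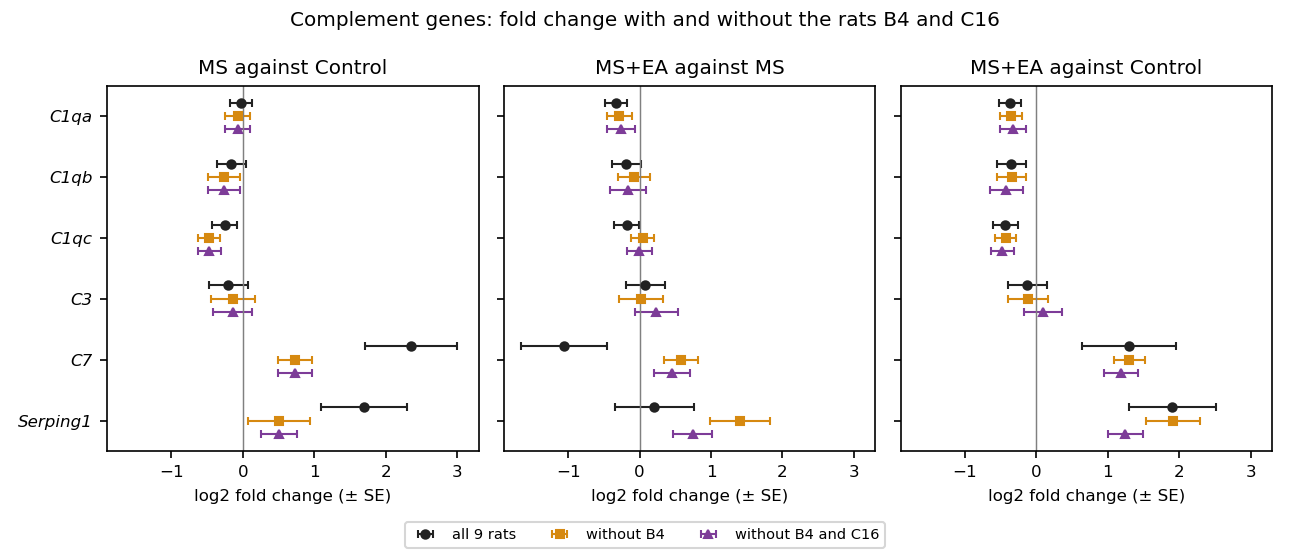
Log2 fold change (x axis, with its standard error) of the 6 complement genes in 3 comparisons, from all 9 rats (circles), without the MS rat B4 (squares) and without B4 and the MS+EA rat C16 (triangles). The points of the C1q genes and of the C3 gene lie between -0.48 and 0.24, whereas C7 in MS+EA against MS rats moves from -1.06 to 0.58 when B4 is left out.

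Levels of C7 and Serping1 were set beside the fibroblast markers, since cells of the meninges and of vessel walls are among those that express them. In the rats B4, C16 and C3 the fibroblast sum was 654, 335 and 221 CPM, and these rats also had the highest levels of both genes. Per 100 CPM of fibroblast markers, C7 stood at 4.0 ± 0.242 CPM (SD, n = 3) in Control rats, 4.38 ± 1.72 CPM in MS rats and 3.87 ± 2.18 CPM in MS+EA rats. On this scale the Control rats lay within the range of both other groups, and B4, at 4.98 CPM, was no longer the highest. For Serping1 the same quantity was 5.21 ± 0.846 CPM, 4.07 ± 0.817 CPM and 6.11 ± 1.21 CPM. The fibroblast markers in the sum did not all run together. Col1a1, Col3a1, Igf2, Fmod and Slc13a4 were higher in every separated rat than in any Control rat, and the others were not. Dcn was at 7.15 to 14.7 CPM in Control rats and at 7.11, 6.79 and 6.10 CPM in B3, B6 and C10. Ratios to single markers were not computed. The summed level of 6 markers of pericytes and smooth muscle was also highest in B4, at 212 CPM. It was 107 to 121 CPM in Control rats and 123 to 148 CPM in MS+EA rats. In B6 and B3 it was 135 and 157 CPM. Of these 6 markers, only Acta2 and Myh11 were highest in B4, and Rgs5, Abcc9, Kcnj8 and Pdgfrb were highest in B3. Serping1 is also known as an interferon-induced gene, and the summed level of 12 interferon-response genes lay between 104 and 120 CPM in all rats, with 113 CPM in B4 and 112 CPM in C16. Other marker sums were also higher in every separated rat than in any Control rat. For 4 blood genes (hemoglobins and Alas2) the sum was 93.7 to 198 CPM in Control rats, 221 to 304 CPM in MS rats and 207 to 303 CPM in MS+EA rats. For 5 endothelial genes it was 137 to 158 CPM, 170 to 192 CPM and 160 to 180 CPM. Taken singly, no blood gene was higher in every separated rat than in any Control rat. Among the endothelial genes, Abcb1a alone was. The choroid plexus sum was 20.9 CPM in B4 and at most 7.15 CPM elsewhere, with Otx2 at 0 in all rats. The part of fibroblasts, vessels, blood and choroid plexus in C7 and Serping1 was not tested.

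**Figure D4:**
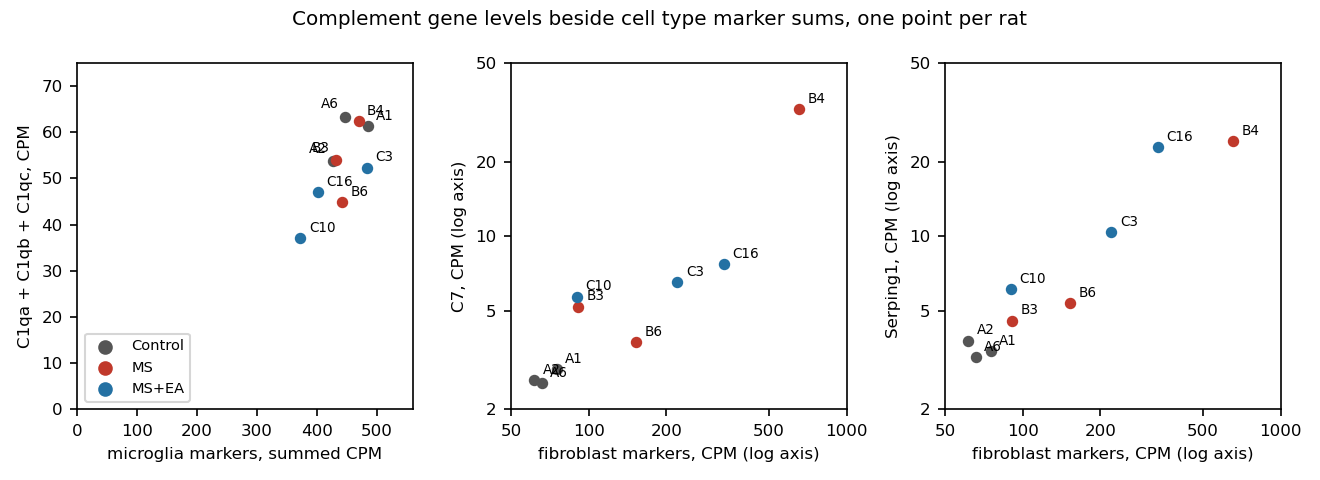
Left, summed level of the C1q genes against the summed level of 12 microglia markers, and middle and right, levels of C7 and Serping1 against the summed level of 12 fibroblast markers on log axes, all in CPM with 1 point per rat. Rat B4 lies at the upper right for C7 and Serping1, with a fibroblast sum of 654 CPM, and the Control rats lie at the lower left.

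The genes whose level over the 9 rats was most like that of each member were found by the Pearson coefficient r of log2 CPM. For Serping1 they were Lama2, a laminin chain of basement membranes (r = 0.988, and 0.959 without the rats B4 and C16), Fam129a (r = 0.987) and Mpzl2 (r = 0.984). For C7 they were Slc6a12, a betaine and GABA transporter (r = 0.975), Myh11, the myosin heavy chain of smooth muscle (r = 0.973), and LOC103694063 (r = 0.971), and all 3 had their highest level in B4. For C1qa they were RGD1560108, LOC102552540 and Nelfa (r = 0.971 to 0.944), for C1qb Slc6a8, Inppl1 and Htra1 (r = 0.972 to 0.971), for C1qc Igfbp7, Wdr18 and Limd1 (r = 0.974 to 0.941), and for the C3 gene Iqca1, Dfnb31 and Gfra1 (r = 0.960 to 0.950). Some coefficients fell further without the rats farthest from the member's median. Slc6a8 and Htra1 were at 0.782 without C10 and A1. RGD1560108 was at 0.847 without C10 and C16, and LOC103694063 at 0.855 without B4 and A6. Those of Nelfa (0.953 without C10 and C16) and Wdr18 (0.972 without B6 and A1) did not fall.

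Likeness was also taken over deviations from the group means, which leaves the differences between groups out. The nearest gene to Serping1 was then Fam129a (r = 0.993), followed by C1r, the protease that C1 inhibitor blocks (r = 0.992, and 0.970 without B4 and C16), and Lama2 (r = 0.992). For C7 the nearest was Mylk, a myosin light chain kinase (r = 0.993, and 0.931 without B4 and B6). For the C1q genes the nearest were Rab33a for C1qa (r = 0.980), Hadhb for C1qb (r = 0.992) and RGD1559955 for C1qc (r = 0.970), and for the C3 gene Tmem235 (r = 0.984). No C1q gene was among the 3 nearest of another. Each is the highest among all genes tested, over libraries that the genes share, and is given as a description.

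The rest of the pathway was taken from a list of 52 other complement genes, of which 50 are in the table and 32 passed the filter. Of these 32 genes, 0 passed both thresholds in any of the 3 comparisons by edgeR, and also 0 by DESeq2. In MS against Control rats 6 of the 32 had an unadjusted p under 0.05, in MS+EA against MS rats 4, and in MS+EA against Control rats 10, where the shares over all genes tested were 10.6%, 12.4% and 22.5%. The median log2 fold change of the list was 0.07, 0.02 and 0.07 in these comparisons, beside -0.00135, 0.000586 and 0.00553 over all genes. Of the 32 genes, 7 were higher in every MS rat than in any Control rat (21.9%), and 0 were lower, beside 10% and 7.53% of all genes. In MS+EA rats 1 was higher (3.13%) and 6 were lower (18.8%) than in every MS rat, beside 8.27% and 9.60% of all genes. Against Control rats, 9 were higher (28.1%) and 2 lower (6.25%) in every MS+EA rat, beside 13.0% and 12.9%. Rat B4 had the highest level for 9 of the 32 genes and for 11.2% of all genes tested.

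The list grouped 8 of the genes tested under the early steps of the classical and lectin pathways. Of these, 6 had their highest level in B4 or C16 (C1r, C1s, C2, C4b, Masp1 and Colec12). Fcna was highest in rat C3 and Colec11 in A1. Over all genes tested, B4 was the highest rat for 11.2% and C16 for 11.4%. C1r was at 5.51 to 6.95 CPM in Control rats, 5.54, 19.1 and 6.97 CPM in MS rats, and 11.2, 7.30 and 19.95 CPM in MS+EA rats. Every MS+EA rat was above every Control rat, with a log2 fold change of 1.06 (edgeR adjusted p = 0.168, SE 0.430), and in MS against Control rats it was 0.78 (adjusted p = 0.541). Without B4 the latter was 0.03. C2, the protease that C1s cuts, had log2 fold changes of 0.83 (adjusted p = 0.466) and 0.89 (adjusted p = 0.192) against Control rats in MS and MS+EA rats, and C1s, named after its values were seen, 0.62 (adjusted p = 0.529) and 0.93 (adjusted p = 0.117). Without B4 the differences between MS and Control rats were 0.37 for C2 and 0.33 for C1s. Without B4 and C16 together, MS+EA rats differed from Control rats by 0.60 for C1r, 0.37 for C2 and 0.47 for C1s. Masp1, a protease of the lectin pathway, was at 20.1 to 30.8 CPM in MS rats and 24.7 to 25.7 CPM in Control rats. Reads of C4b, 44 to 95 per rat, may include those of its near-identical copy C4a, which had at most 1 read.

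Among the genes of the alternative pathway, Cfb (factor B) was at 3.29 to 5.78 CPM in Control rats, 6.53 to 10.8 CPM in MS rats and 6.66 to 7.44 CPM in MS+EA rats. Its log2 fold change was 0.84 (edgeR adjusted p = 0.186, SE 0.228) in MS against Control rats and 0.64 without B4. Cfp (properdin) and Cfd (factor D) overlapped in all comparisons. Of the terminal components other than C7, 1 of 6 was tested, C8g, which was at 3.53 to 3.92 CPM in Control rats, 3.75 to 3.85 CPM in MS rats and 3.05 to 4.15 CPM in MS+EA rats. C8a and C9 had no read in any rat, and C5 and C8b had at most 2 reads in a rat. A count of 0 in a rat allows up to 3 reads.

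The regulators of highest level were Csmd1, Susd4 and Csmd3, membrane proteins of neurons that hold complement control repeats. In MS against Control rats their log2 fold changes were -0.09 (SE 0.0853), -0.03 (SE 0.0655) and 0.04 (SE 0.0954), and in MS+EA against MS rats they were 0.03, -0.10 and 0.14, with edgeR adjusted p values from 0.570 to 0.923. The membrane regulators Cd46, Cd55 and Cd59 are named here after their values were seen. Cd46 was at 6.59 to 8.46 CPM in Control rats, 6.88 to 8.84 CPM in MS rats and 9.86 to 11.7 CPM in MS+EA rats, higher in MS+EA than in Control rats by a log2 fold change of 0.56 (edgeR adjusted p = 0.0552, SE 0.156). Cd55 was at 2.92 to 4.09 CPM, 3.13 to 4.82 CPM and 1.07 to 2.54 CPM in these groups. The log2 fold change of MS+EA rats was -0.87 (edgeR adjusted p = 0.128, SE 0.318) against Control rats. Against MS rats it was -1.01 (edgeR adjusted p = 0.260) for Cd55 and 0.52 (edgeR adjusted p = 0.245) for Cd46. Cd59 was at 82.9 to 87.0 CPM, 88.4 to 97.1 CPM and 78.5 to 81.6 CPM. In MS against Control rats it differed by 0.15 (edgeR adjusted p = 0.422). In MS+EA against MS rats it differed by -0.24 (edgeR adjusted p = 0.236).

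Among the receptors and binding proteins, Cd93, a C1q receptor-like protein of endothelium, had the smallest p of the list. Its level was 12.5, 16.2 and 19.4 CPM in Control rats, 22.5, 24.1 and 24.2 CPM in MS rats, and 13.7, 11.1 and 10.3 CPM in MS+EA rats. The MS rats were above all other rats. On the log2 scale the difference was 0.56 (edgeR adjusted p = 0.188, SE 0.154) in MS against Control rats and -1.01 (edgeR adjusted p = 0.0938, SE 0.159) in MS+EA against MS rats, and without B4 the latter was -0.99. The endothelial marker sum was likewise higher in every MS rat than in any Control rat, by the values given above. The MS+EA rats, at 160 to 180 CPM, were also above all Control rats in this sum. Its single markers differed. Abcb1a was at 52.7 to 61.5 CPM in Control rats, 65.1 to 76.1 CPM in MS rats and 70.5 to 80.0 CPM in MS+EA rats. Cldn5 was at 44.9 to 49.7 CPM, 55.4 to 60.9 CPM and 47.0 to 50.6 CPM in these groups. Pecam1, Cdh5 and Flt1 overlapped between the groups. The part of endothelium in the level of Cd93 was not tested. Calr and C1qbp, which bind C1q, had the highest levels of this class, with log2 fold changes between -0.13 and 0.11 in the 3 comparisons.

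**Figure D5:**
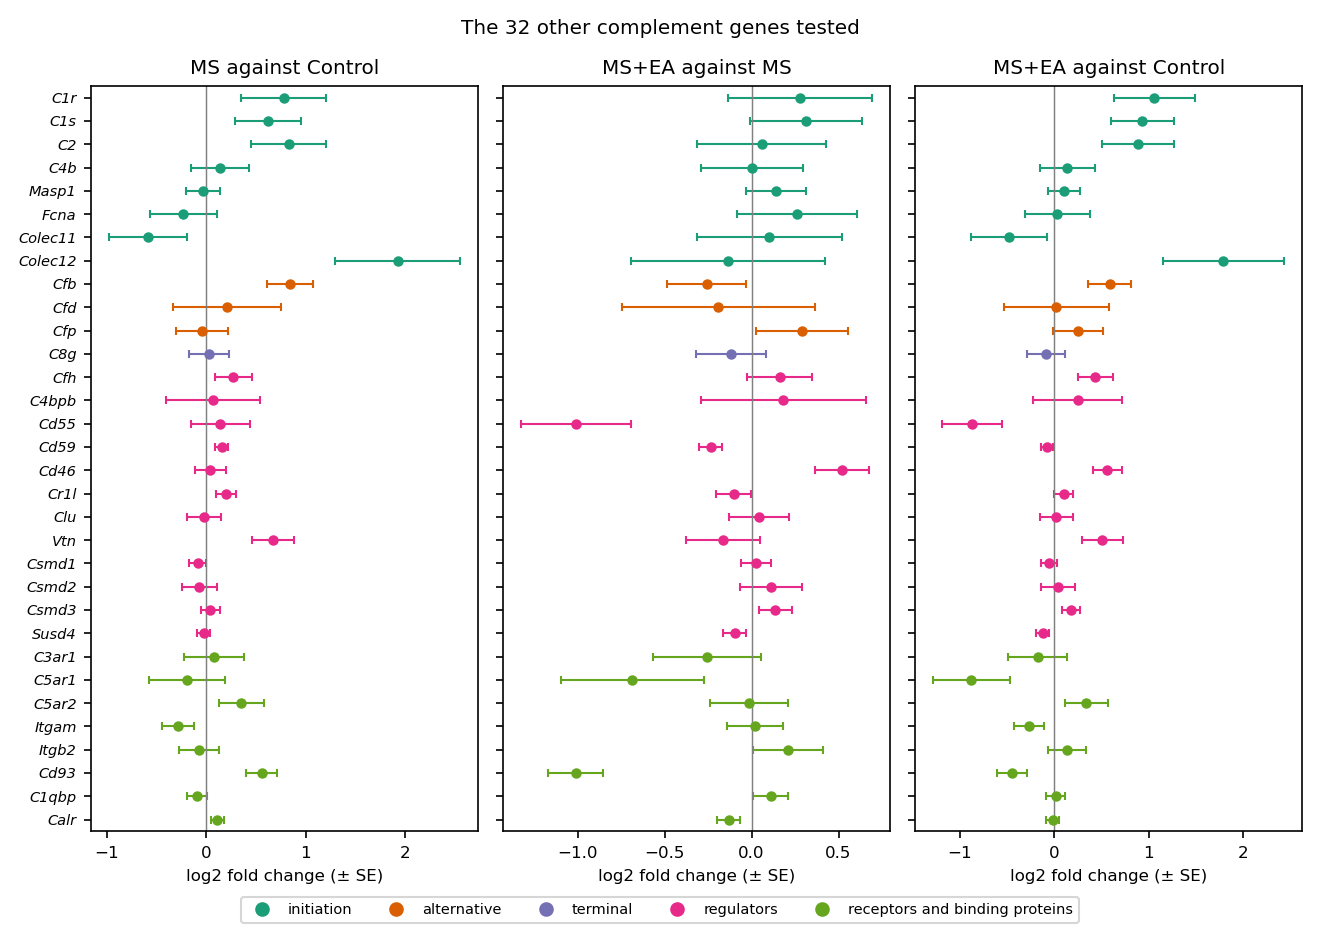
Log2 fold change (x axis, with its standard error) of the 32 other complement genes tested (rows), coloured by role, in the 3 comparisons. Colec12, C1r, C2, C1s and Cfb lie to the right of 0 against Control rats, Cd93 lies at -1.01 in MS+EA against MS rats, and none of the 32 passed both thresholds.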

How the data were processed

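The authors checked reads from rRNA-depleted total RNA for quality with FastQC and aligned them against the Rnor_6.0 assembly by HISAT2, version 2.0.4 in the submitters' processing notes. The deposited values are raw whole-number counts per gene, without normalization. The counting program, its strand setting and its use of multimapping reads are not given in the sources used here, so reads of overlapping, antisense or near-identical genes cannot be told apart.

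All 9 rats were fitted in 1 model with edgeR 4.0.16 (R 4.3.3), with TMM, filterByExpr (minimum count 10) and the quasi-likelihood F test. P values were adjusted by Benjamini-Hochberg over the 16837 genes tested, and thresholds followed the study's methods. EBSeq, which the study used, was not run. Log2 CPM used a pseudocount of 0.5. Alternatives were DESeq2 1.42.0, RLE or total counts, 2 other filters, adjusted p alone, and leaving out each rat in turn. Leaving out B4 and C16 together was added after the data were seen. The procedures were tested on simulated data. The members and lists were chosen with earlier results of these data known. Named other complement genes are up to 3 of highest level per role, and likeness took the 3 nearest genes per member. C1s, C4b, Colec12, Cd46, Cd55, Cd59, Vtn and the genes under the filter were named after their values were seen. Tables and plots used Python 3.11.15, pandas 2.3.3, numpy 2.4.6, scipy 1.17.1 and matplotlib 3.10.9.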

Additional observations from a re-analysis of the deposited data

How the results depend on the processing

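With 3 rats a group and 41 to 54 reads of C7 in Control rats, single rats weighed heavily. Of 252 alternative log2 fold changes of the 6 genes, 11 moved by more than the spread between rats, all when B4, C16 or rat C3 was left out, and none under DESeq2, RLE or another filter. The direction of C7 in MS+EA against MS rats turned in 2 of 14 alternatives, and its values without 1 rat ran from -1.51 to 0.58. That of Serping1 turned in 3 of 14, from -0.46 to 1.41. The direction also turned for the C3 gene in MS+EA against Control rats in 3 of 14 and against MS rats in 1 (without rat C3), for C1qa in MS against Control rats in 2 (0.07 without A6, 0.05 without B6), and in MS+EA against MS rats for C1qb in 1 (0.05 without C10) and for C1qc in 1 (0.04 without B4). Levels under RLE or total counts, and shares of C1q chains without each rat, moved by less than the spread.

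Of all genes, 4 passed both thresholds in MS against Control rats, 70 with DESeq2, 207 without the filter on low counts and 2 to 22 without 1 rat (2 without A1 or A2, 22 without B3, 9 without rat C3, 10 without C10). In MS+EA against MS rats 3 passed, 6 with DESeq2, 72 without the filter, 0 with at least 10 counts in every rat (1951 at an unadjusted p under 0.05) and 1 to 4 without 1 rat (1 without A1 or C16). In MS+EA against Control rats 230 passed, 469 without the filter, 910 without a fold change threshold and 71 to 304 without 1 rat (71 without A1, 121 without C10). Of the other complement genes, 0 passed in each comparison, also without each rat, but without the filter 2 passed in MS against Control rats (Cfb and Vtn, whose filtered log2 fold changes of 0.84 and 0.67 were 0.64 and 0.34 without B4), 1 in MS+EA against MS rats (Cd93) and 3 in MS+EA against Control rats (C1r, C1s and C2). The cause was not tested. For the 6 members, calls without the filter are not given. Their SE was then smaller in MS against Control rats for C7 (0.394 in place of 0.643, log2 fold change 2.35). The same held for Serping1 (0.369 in place of 0.605, log2 fold change 1.69). The members' result under both thresholds therefore holds for the filtered fit only. No paired analysis was possible because the groups are different rats whose names pair none of them.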

Other observations

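Complement genes under the filter on low counts had scattered reads. C6, a terminal component, had 2 to 9 reads in Control and MS rats and 15, 1 and 9 reads in the MS+EA rats C3, C10 and C16. Itgax, a subunit of a C3 receptor, had 19 reads in B4 against 9 or fewer elsewhere, and for Cfi, the protease that cuts C3b, the values were 6 reads and at most 1. Colec10 had 9 reads in C10 against 3 or fewer elsewhere, and Cpn1 had 7 and 4 reads in C10 and C16 and at most 1 in the others. Of the 50 listed genes in the table, 6 had no read in any rat, namely Mbl1, Mbl2, C8a, C9, Cpn2 and Vsig4.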
